A study of Mus musculus with 2 samples.

Results

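Of the 4607 long intergenic noncoding RNA (lincRNA) intervals represented on this mouse expression array, 2559 lay more than 20 kb from the position of every probe for a RefSeq protein-coding transcript. These far intervals are the subject here. The array's design names each interval by its chromosome, start and end on mm9 and by its strand, forward (F) or reverse (R), and gives it 1 to 10 probes of 60 bases (median 3, 8438 probes in all). The 2 names of the interval that holds the over-expressed RNA itself were left out, and the other 2046 intervals lay within 20 kb of a coding probe. The far intervals had a median length of 11401 bases and a median distance to the nearest coding probe of 64927 bases. They lay on 20 chromosomes, 1282 on the forward and 1277 on the reverse strand. Many overlapped, so that 1788 shared ground with another far interval and all of them together formed 1391 separate loci.

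The cells were lineage-negative (Lin-) erythroid progenitors of E14.5 fetal livers from C57BL/6 mice. They received either ESlncRNA or an empty vector by transduction and were sorted for GFP, so every sample had been transduced and sorted. ESlncRNA is the noncoding RNA also called lincRNA-EPS. Each of 2 arrays compared 1 ESlncRNA sample, labelled with Cy5 (red), with 1 vector sample, labelled with Cy3 (green), so each ratio below is red over green, ESlncRNA over vector. Dyes were not swapped, and dye and treatment cannot be told apart for any single probe.

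LincRNAs are transcribed from their own units between protein-coding genes, and most are spliced and polyadenylated like messenger RNAs. They are as a class less abundant and more restricted to particular cell types than messenger RNAs, and some act in the nucleus on chromatin or on gene expression. During maturation of red cells in the fetal liver many such RNAs come and go with the stage of the cell. Each probe reads transcripts of 1 strand, so an interval probed on both strands reports on 2 different possible transcripts.

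The probes below were chosen because the forward and reverse probes differed there in signal or in ratio. Each pair holds a forward and a reverse probe from the same place, and capitals mark the bases in which they are complementary. The pairs were picked after their values were seen and do not stand for all complementary pairs. In the first, signal of the reverse strand cannot be told apart from messenger RNA of the coding gene Gmfg, as described below. The forward and reverse probes between Peg10 and Ppp1r9a lie at chr6:4843642-4843701 and chr6:4843656-4843715 and share 46 bases, those between Mycbp2 and Scel lie at chr14:103759457-103759516 and chr14:103759459-103759518 and share 58 bases, and those between Nr5a2 and Ptprc lie at chr1:139796208-139796267 and chr1:139796194-139796253 and share 46 bases (all mm9, written 5′ to 3′).
Peg10 to Ppp1r9a, forward: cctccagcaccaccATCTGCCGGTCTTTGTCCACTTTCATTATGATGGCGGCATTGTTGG
Peg10 to Ppp1r9a, reverse: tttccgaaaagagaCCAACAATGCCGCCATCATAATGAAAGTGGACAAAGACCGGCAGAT
Mycbp2 to Scel, forward: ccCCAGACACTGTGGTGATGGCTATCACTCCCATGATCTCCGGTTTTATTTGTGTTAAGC
Mycbp2 to Scel, reverse: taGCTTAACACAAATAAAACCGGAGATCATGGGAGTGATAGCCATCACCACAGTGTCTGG
Nr5a2 to Ptprc, forward: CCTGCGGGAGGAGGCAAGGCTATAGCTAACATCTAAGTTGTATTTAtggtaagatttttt
Nr5a2 to Ptprc, reverse: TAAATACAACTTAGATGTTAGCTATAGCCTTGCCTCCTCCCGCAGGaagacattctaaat

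The next probes stand for other intervals with large differences between ESlncRNA and vector, 3 that fell and 2 that rose, each well above background in the channel that was bright. They lie at chr1:175706660-175706719, chr2:128211991-128212050, chr19:53534643-53534702, chr12:32781622-32781681 and chr13:66401076-66401135 on mm9, in the order printed, and carry no capitals because no shared stretch is marked.
Ifi204 to Mndal, reverse, fell: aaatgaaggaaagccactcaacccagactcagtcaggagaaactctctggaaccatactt
Bcl2l11 to Anapc1, reverse, fell: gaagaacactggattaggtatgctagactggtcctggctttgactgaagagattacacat
Smndc1 to Dusp5, reverse, fell: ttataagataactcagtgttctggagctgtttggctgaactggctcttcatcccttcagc
Prkar2b to Pik3cg, reverse, rose: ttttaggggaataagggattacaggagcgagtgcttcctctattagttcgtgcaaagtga
Gm10324 to Uqcrb, forward, rose: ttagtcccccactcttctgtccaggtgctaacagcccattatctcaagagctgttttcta

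Signals below are in the units of the scanner after normalization, and ratios are on the log2 scale, given as the mean of both arrays ± SD (n = 2 arrays). A probe was kept where it was well above background, by the scanner software's own test, in at least 1 channel on both arrays, and an interval's value is that of its brightest kept probe. Genes named as flanking an interval, or as its neighbours, are those of the nearest coding probe on each side. In some of these gaps RefSeq lists other protein-coding genes or pseudogenes. Adjusted p-values are from limma, fitted over 26789 probes with Benjamini-Hochberg adjustment, and "rose" and "fell" mean an adjusted p under 0.05. No label ties the replicates to separate animals or cultures, so these p-values measure the spread between 2 arrays on 1 slide, which may be technical. The interval of the over-expressed RNA, outside the set described here, read 378 and 356 in ESlncRNA against 81.0 and 77.9 in vector, where it was not well above background (2.21 ± 0.024, adjusted p = 2.17e-07).

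Fewer than 1 in 2 far intervals gave a signal on both arrays, although 1399 (54.7%) did so in at least 1 channel on at least 1 array. A probe was kept for 1164 of the 2559 intervals (45.5%), representing 724 of the 1391 loci, and 1160 intervals were not well above background in any channel on either array. In the vector channel 1276 intervals (49.9%) were detected on the array of replicate 1 and 1167 (45.6%) on that of replicate 2. In the ESlncRNA channel the numbers were 1133 (44.3%) and 1054 (41.2%). The vector channel was also the higher one over all probes of the array, at 52.1% and 49.1% against 45.6% and 44.4% with ESlncRNA. Among the far intervals 926 intervals (36.2%) had a probe detected in both channels on both arrays. Strand made little difference, with 574 of the 1282 forward intervals (44.8%) and 590 of the 1277 reverse intervals (46.2%) kept.

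Far intervals were detected less often than intervals near coding genes, of which 1195 of 2046 (58.4%) were kept, and less often than coding genes, of which 12734 of 19828 (64.2%) were kept. These shares are descriptions without a test, since intervals of an array are not replicates. Distance went with detection within the far set too: 51.0% of the 989 intervals between 20 and 50 kb from a coding probe were kept, 45.2% of the 768 between 50 and 100 kb, 40.9% of the 718 between 100 and 500 kb, and 22.6% of the 84 beyond 500 kb. So did the number of probes, with 35.5% of intervals with 1 to 2 probes kept, 42.7% with 3 to 4 and 62.2% with 5 to 10. Base composition moved with it as well. Of far probes with a GC content under 40%, 18.9% were kept, against 22.7% from 40% to 50% and 42.9% at 50% and over. The part of probe number and base composition in the difference by distance was not tested.

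**Figure D1:**
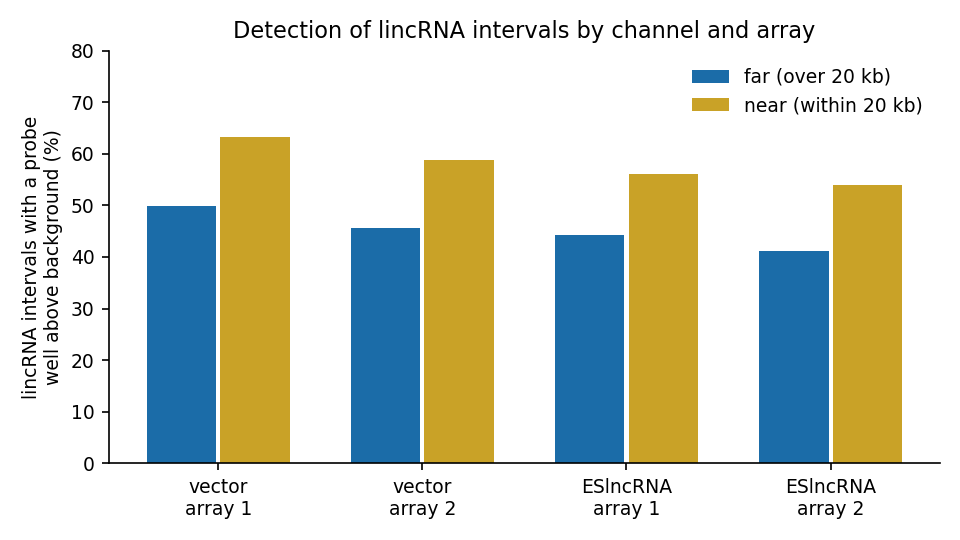
Share of lincRNA intervals (%, y axis) with at least 1 probe well above background in each channel and array (x axis), for the 2559 far intervals and the 2046 near ones. The far bars run from 41.2% to 49.9% and lie below the near bar in every channel.

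Among the 1164 far intervals kept, 323 rose with ESlncRNA (27.7%), 258 fell (22.2%) and 583 did not pass. Over all 19890 genes and intervals tested the shares were 26.3% rising and 36.8% falling, so the rising share of the far intervals was near the background and the falling share below it. The far intervals were also dimmer, with a median log2 intensity of 7.04 against 9.21 over everything tested and 10.03 over coding genes. The part of brightness in these shares was not tested. The median log2 ratio of the far intervals was 0.04, against -0.03 over everything tested and -0.06 over 12651 coding genes. Most fitted changes were small. The background correction added an offset of 50 to each signal, which draws the ratios of dim probes toward 0. Of the 581 far intervals that rose or fell, 462 changed by less than 1.5-fold, as did 503 of 596 near intervals and 8874 of 12543 of all genes and intervals that rose or fell. At least 2-fold on both arrays, 3 far intervals were higher (background 0.603%) and 23 were lower (background 8.11%), and the lower ones reached much further, to -4.12 against 1.25 for the highest. Intervals near coding genes gave similar counts, with 317 rising, 279 falling and 599 not passing of 1195.

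The balance of rising and falling intervals rests on the processing. With each array centred on its median in place of loess, 666 far intervals rose and 133 fell, but the median of everything tested then stood at 0.27 and 0.36 on the 2 arrays, against a far median of 0.23. With the scanner software's processed signals 456 rose and 143 fell, with a median over everything of 0.12 and 0.13 and a far median of 0.30. In the authors' deposited values 202 rose and 205 fell, with a median over everything of -0.06 and -0.05. With the channels unpaired 178 rose and 186 fell. The shares of all genes and intervals that rose or fell were not computed under these settings, so these counts cannot be set against a background. The number of far intervals reduced 2-fold or more on both arrays was 14 under median centring and 67 when processed signals were used.

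Detection in 1 channel alone set part of the pattern. In 36 intervals the kept probe was above background only with ESlncRNA, and all 36 rose. In 106 it was above background only with vector, and 64 of these fell. These are dim probes, with a median uncorrected signal of 117 and 108 in ESlncRNA and of 24.5 and 28.3 in vector for the 36. Uncorrected red exceeded green over the whole array, with medians of 67.8 and 76.3 against 35.9 and 39.5. After normalization the median log2 ratio of the 36 was 0.69. A fold from a probe seen in 1 channel alone is given as a lower bound, and its fitted log2 ratio can exceed that bound. Among the 919 intervals whose kept probe was above background in both channels on both arrays, 271 rose, 173 fell and 475 did not pass, beside a background of 28.1% and 33.5% for such features. In this better measured set 1 interval was at least 2-fold higher and 16 were at least 2-fold lower on both arrays, beside 0.569% and 7.39%.

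**Figure D2:**
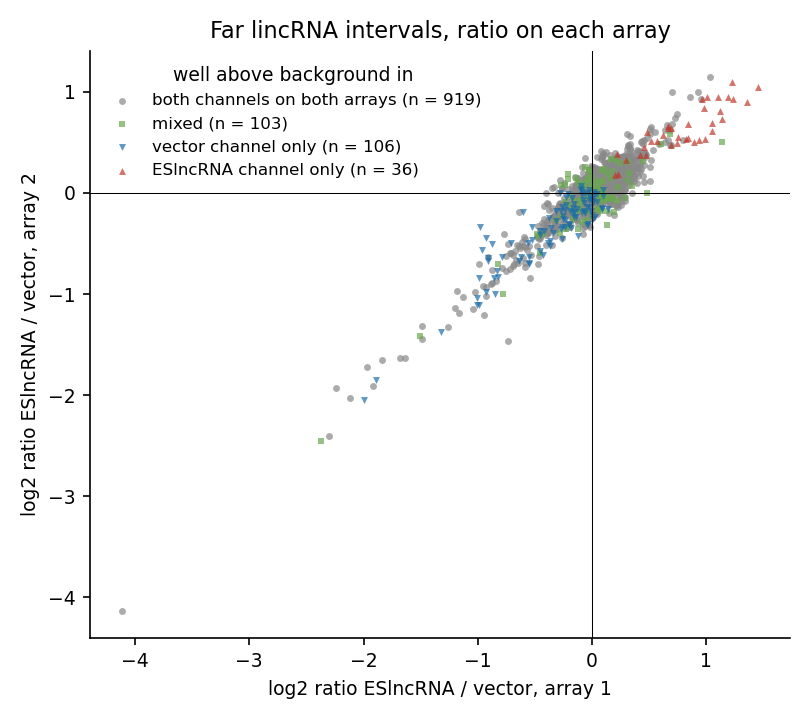
Log2 ratio of ESlncRNA over vector on the array of replicate 1 (x axis) and replicate 2 (y axis) for the 1164 far intervals kept, by the channels in which the probe was well above background. Points follow the diagonal from -4.12 to 1.25, and the 36 intervals seen only with ESlncRNA make up most of the upper end.

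The intervals that fell most carried the largest changes of the set. The reverse strand of chr6:4841700-4847400, between Peg10 and Ppp1r9a, gave 16995 and 15008 in vector and 983 and 854 in ESlncRNA. The channels lay far apart on both arrays, and the interval fell 17.4-fold (-4.12 ± 0.017, adjusted p = 5.44e-08). Its other reverse probe read -3.97. The forward strand of the same interval fell too, from 465 and 456 to 89.5 and 83.3 at its brightest probe (-2.41 ± 0.053), and all 5 of its probes fell, from -0.64 to -2.41. RefSeq lists a pseudogene of Gmfg, Gmfg-ps, in this neighbourhood, at the start of Ppp1r9a. Gmfg itself, which encodes an actin-regulating protein of blood cells and lies on another chromosome, fell by 4.41 at the probe that represents it. A forward probe of the interval was complementary to that Gmfg probe over 42 bases without a mismatch, so the reverse strand of the interval carries those bases of Gmfg. Signal from Gmfg messenger RNA and from the reverse strand of the interval cannot be told apart.

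The reverse strand of chr1:175705225-175717250 gave 814 and 764 in vector and 165 and 144 in ESlncRNA, and fell 5.10-fold (-2.35 ± 0.074, adjusted p = 2.32e-07). All 5 of its probes fell, the least at -1.17. It sits in the cluster of interferon-inducible Ifi200 genes between Ifi204 (-1.82) and Mndal (-2.11), which fell as well, and RefSeq names a pseudogene, Ifi203-ps, between them. Its representing probe shared no stretch of 40 bases or more at 90% identity with a coding probe of the array, and likeness to the transcripts of this gene family beyond the array's probes was not tested.

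Bcl2l11, which encodes the pro-apoptotic protein BIM, and Anapc1, a subunit of the anaphase-promoting complex, flank chr2:128211990-128215223. Its reverse strand read 586 and 447 in vector and 124 and 118 in ESlncRNA, a 4.25-fold fall (-2.09 ± 0.22). Neither flanking gene fell: Bcl2l11 stood at 0.14 (adjusted p = 0.0777) and Anapc1 rose slightly (0.19). The same gap holds Morrbid, a noncoding RNA known for prolonging the life of short-lived myeloid cells by restraining Bcl2l11. The interval that contains a RefSeq Morrbid probe, chr2:128142035-128142481_R, was above background only with vector, at 132 and 131 against 66.3 and 60.7 in ESlncRNA (-1.05 ± 0.081). That Morrbid probe itself fell by 0.72 ± 0.063. Also falling in this gap were the reverse intervals chr2:128137419-128141735_R (-1.35 ± 0.039) and chr2:128217275-128217972_R (-0.62 ± 0.098), but these and the Morrbid interval were kept only through the vector channel, where they are high, so their number adds no support. The Morrbid comparison was made after its values were seen.

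The other strongly lowered intervals lay apart from each other. At chr1:87348082-87409907 forward the vector read 624 and 674 and ESlncRNA 144 and 166 (-2.07 ± 0.064), from its only probe. The nearest coding probe to its right belongs to Sp110, which rose slightly (0.20), but RefSeq lists the protein-coding Gm7592 and Gm2427 in this gap. The reverse strand of chr11:120041124-120052299, which contains probes of the noncoding RNA 2810410L24Rik, was above background only with vector and was at least 4.06-fold lower. Its other kept probe fell less (-0.47), and of the 2810410L24Rik probes 1 fell (-0.95) and the other did not pass (-0.07), so the size rests on the probe chosen. The reverse strand of chr19:53517903-53540753 overlaps Mirt1 and read 265 and 273 against 71.8 and 75.7, at least 3.57-fold lower, and all 10 of its probes fell, from -1.98 to -0.51. The RefSeq probe for Mirt1 in it fell by 2.64 ± 0.042. At chr15:36800254-36809571 reverse, between Ywhaz and Zfp706, all 3 probes fell, from -3.01 to -1.85, and the brightest went from 821 and 743 to 209 and 225. Lastly, chr9:118291593-118324230 forward, lies between Cmc1 and Eomes and fell from 601 and 593 to 168 and 189 (-1.75 ± 0.13).

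Marker genes of other blood cells moved the same way as these intervals. All 14 granulocyte markers on the array fell, with a median of -4.72, and their summed signal was 1191770 and 1322190 in vector against 45358 and 51901 in ESlncRNA. S100a8, a calcium-binding protein of neutrophils, fell (-5.43), as did Ctsg, a protease of neutrophil granules (-5.24). All 11 macrophage markers above background fell (median -2.19, summed signal 21602 and 21793 against 2452 and 2394), as did all 5 of mast cells and basophils and all 7 of megakaryocytes (medians -3.06 and -1.85). Of the stem and early progenitor markers 7 fell and 1 rose, of the hepatocyte markers 5 of 7 fell, and of the endothelial and stromal ones 6 of 7. C1qa, Fcer1a and Mecom were not above background. Of 15 erythroid markers 11 rose and the other 4 did not pass (median 0.66), with Hba-a2, an alpha globin, at 1.02. In bulk samples like these fewer cells of a type and less RNA per cell cannot be told apart. The part of these other cells in the falls of the lincRNA intervals was not tested.

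The intervals that rose most were dim. Of the 10 highest, 8 were above background only with ESlncRNA, so their folds are given as lower bounds, of between 1.72-fold and 2.11-fold. The log2 ratios given for them are fitted values and can exceed these bounds. The highest value, 1.25 ± 0.28, belonged to chr10:118385588-118439338 reverse, between Dyrk2 and Cand1, at 185 and 133 in ESlncRNA against 67.7 and 64.3 in vector. Next came chr13:54399275-54445825 reverse, between Hrh2 and Cplx2, at 165 and 148 against 70.6 and 69.0. This interval had another kept probe, above background in both channels, which read -0.01, so its rise rests on the probe chosen. Then followed chr1:94608820-94634671 reverse between Otos and Gpc1 (1.13 ± 0.33), at 174 and 135 against 67.7 and 72.7. The other 5 of this kind lay between Klf12 and 1700110M21Rik (1.08), Gm14431 and Gm14308 (1.07), Gm414 and Sis (1.02), Psd3 and Sh2d4a (0.98), and Wdr89 and Sgpp1 (0.97). Each of the 8 had a single kept probe that rose.

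Both intervals of the 10 that were measured in both channels rose by about 2-fold. At chr13:66381200-66410200 forward, between Gm10324 and Uqcrb, ESlncRNA read 280.2 and 274 and vector 137 and 124, a rise on both arrays (1.08 ± 0.080, adjusted p = 7.35e-06). Its other kept probe rose by 0.60. At chr12:32781477-32808567 reverse, between Prkar2b and Pik3cg, where RefSeq lists the lncRNA 5430401H09Rik, ESlncRNA read 1062 and 1025 against 560.5 and 514 in vector (0.96 ± 0.053). All 3 of its probes rose, by 0.89 to 1.08. Of its neighbours Prkar2b, a regulatory subunit of protein kinase A, rose by 0.33 and Pik3cg, a phosphoinositide kinase of white blood cells, fell by 1.05.

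**Figure D3:**
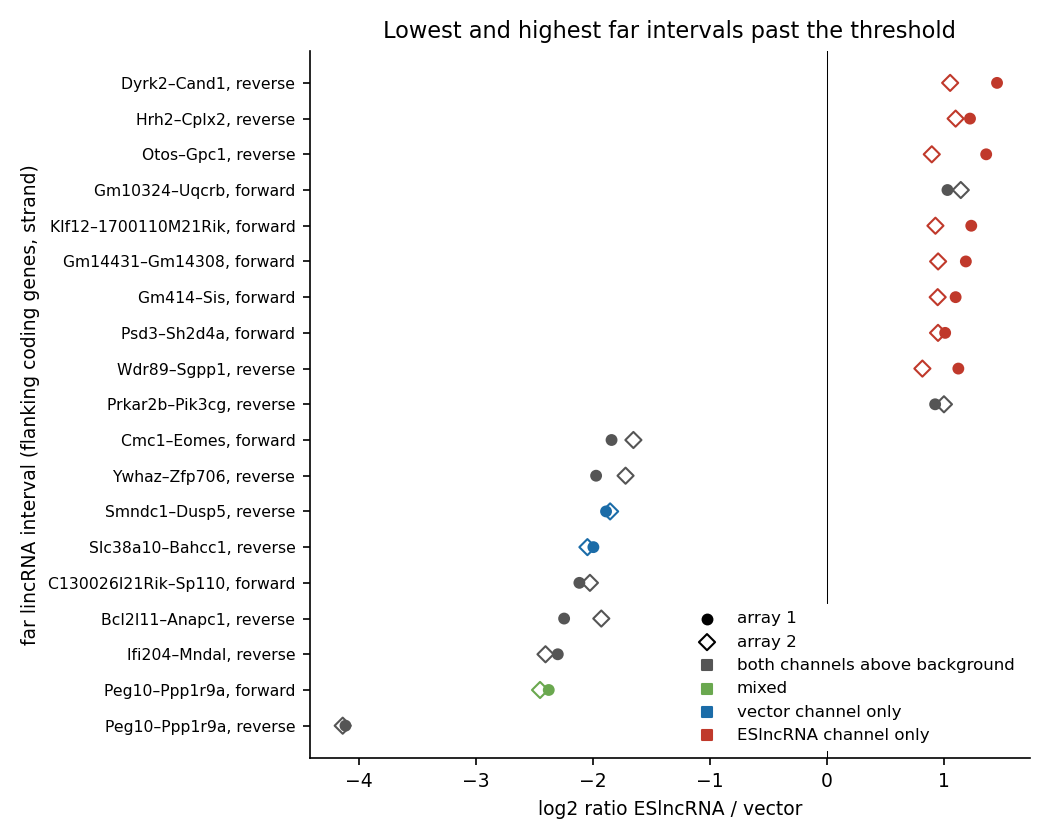
Log2 ratio of ESlncRNA over vector (x axis) on each array for 9 of the 10 lowest and all of the 10 highest far intervals past the threshold. Intervals are named by the genes of the nearest coding probe on each side and by strand (y axis). The lowest point is the reverse strand between Peg10 and Ppp1r9a at -4.12, and 8 of the 10 highest were above background only with ESlncRNA.

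Some far intervals overlap noncoding RNAs that RefSeq names, and this set was chosen after its values were seen. There were 63 kept intervals with a RefSeq noncoding probe inside them, from 36 accessions, of which 33 were matched to a current symbol or accession of assembly GRCm38.p6. Where the interval and the RefSeq probe read the same strand, 25 of 38 pairs had ratios of the same sign (Pearson r = 0.48, Spearman rho = 0.41 across pairs that share genes and arrays). Where they read opposite strands, 9 of 21 did.

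Intervals over several known noncoding RNAs rose, though the RefSeq probe of the RNA did not always rise with them. At chr14:115423660-115463160 forward, over the host transcript of the Mir17 cluster (Mir17hg, a microRNA cluster that promotes proliferation), ESlncRNA read 955 and 974 and vector 588 and 608, a rise of 0.69 ± 0.014 at its brightest probe. Of its 5 kept probes only that 1 rose, so the value rests on the probe chosen. The shorter interval of Mir17hg, chr14:115443612-115445950 forward, did not pass (0.04, adjusted p = 0.515), nor did the RefSeq probe (0.03). Over Pvt1, the noncoding neighbour of Myc, chr15:61984389-62102500 forward read 1299.9 and 1375 against 916 and 889 (0.57 ± 0.087), and both RefSeq probes of Pvt1 rose, by 0.52 and 0.50. The reverse strand of chr6:86776350-86799379, over 2610306M01Rik, rose by 0.63 ± 0.013 and its RefSeq probe by 0.45. Over Mirg, chr12:110944403-110988678 forward rose by 0.29, but the RefSeq probe of Mirg in it fell by 0.62.

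Others fell or did not pass. The reverse strand of chr14:62294849-62301165, in Dleu2, a host transcript of Mir15a and Mir16-1, read 512 and 459.6 in vector and 273 and 296 in ESlncRNA (-0.77 ± 0.19). The 3 other Dleu2 intervals on that strand ranged from -0.16 to 0.15 and the RefSeq probe read -0.32, so the values of this gene's probes do not go together. On the X chromosome the interval over 6720401G13Rik, chrX:47893703-47996700 reverse, fell by 0.57. Both of the RefSeq probes kept there fell (-0.80 and -0.34), but neither was matched to a current symbol. The probe there that was matched to Firre was not kept. Terc, the RNA component of telomerase, lies in chr3:96215885-96218756 reverse, which did not pass at 37703 and 41816 against 37312 and 40639 (-0.03 ± 0.018, adjusted p = 0.634). The RefSeq probe of Terc in it, which did not pass either (-0.02), was far dimmer, with a mean log2 intensity of 7.34 against 15.3 for the interval's probe, so the bright signal cannot be taken as that of Terc. Dancr, in chr5:74487385-74497428 forward, did not pass either (0.12, adjusted p = 0.0756), although the RefSeq probe of Dancr rose slightly (0.15), as did the shorter interval chr5:74489084-74491430 forward (0.20).

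Of the 3 loci with the most kept probes, the first lies at chr1:139713316-139913366 between Nr5a2 and Ptprc, where RefSeq places Mir181a-1 and Mir181b-1, microRNAs of lymphoid and early blood development. Of its 37 probes in 9 intervals 19 were kept, of which 16 fell and the other 3 did not pass. The 15 forward probes fell, the most in chr1:139822286-139822985 (-1.63, -1.42 and -1.19). The 4 reverse probes ranged from -0.17 to 0.04 and only 1 of them fell. At 3 places complementary probes were kept on both strands, and at each the forward probe fell more, as at -0.74 against -0.17 and at -0.69 against -0.05. For the pair printed above, the forward probe gave 268 and 287 in vector and 116 and 130.5 in ESlncRNA, while the reverse probe gave 138 and 135 and then 140.4 and 140.3. The forward probe thus fell by 1.17 ± 0.048 and the reverse one read 0.04 ± 0.017 (adjusted p = 0.482). Ptprc, the pan-leukocyte antigen CD45, fell by 2.70.

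**Figure D4:**
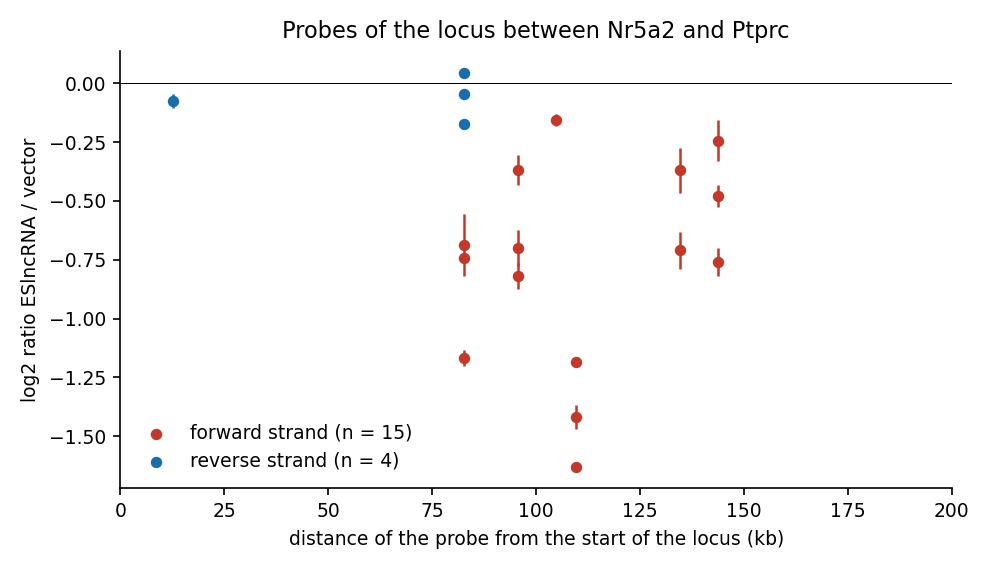
Log2 ratio of ESlncRNA over vector (y axis; points are means of 2 arrays, vertical lines join the arrays) for the 19 kept probes between Nr5a2 and Ptprc, by distance from the start of the locus in kb (x axis). Forward probes fall to -1.63, while the 4 reverse probes lie between -0.17 and 0.04.

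Another of these loci, chr11:3521324-3554450 between Smtn and Morc2a, holds Tug1, a widely expressed noncoding RNA. Of its 22 kept probes 6 rose and 5 fell, within a narrow range from -0.29 to 0.48. The RefSeq probes of Tug1 also lay on both sides of 0 (-0.33, -0.04 and 0.30). The last, chr17:39960567-39992817 between Olfr136 and Pgk2, contains the probe of Rn18s, 18S ribosomal RNA, and is among the brightest places on the array. All 20 of its probes were kept, 12 fell and the other 8 did not pass, from -0.54 to 0.00. Of its 3 brightest intervals 2 fell (-0.54 and -0.46) and 1 did not pass (-0.01). With median centring, which lifts the median of everything to 0.27 and 0.36, they read 0.43, 0.49 and 1.01, so the sign of the 2 that fell flips with the scaling. The Rn18s probe, on the forward strand, rose by 1.06 and 0.94 on the arrays of replicates 1 and 2.

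Both strand names were on the array for 527 far intervals. A probe was kept on both strands of 178, on the forward strand alone of 108, on the reverse strand alone of 105 and on neither of 136. The difference of the log2 ratio between strands, forward minus reverse, was tested within each array for all 421 lincRNA intervals with both strands kept. Of the 178 far ones 41 had the higher ratio on the forward strand and 34 on the reverse, and 103 did not pass. Over all 421 intervals these shares were 21.1% and 17.8%. The counts depend on the processing: they were 10 and 13 with processed signals, 14 and 16 with the channels unpaired, and 23 and 18 with a normexp offset of 0 or with both channels above background. The median difference was 0.02 and the median absolute difference 0.22, so differences ran both ways. On 15 of the 178 far intervals the strands moved in opposite directions past the threshold and on 20 in the same direction. Among the 243 near intervals with both strands kept these numbers were 18 and 41. Across the 178 intervals, which share arrays and in part loci, the strands' ratios correlated with r = 0.38 (Pearson) and rho = 0.05 (Spearman). That r includes the outlying interval between Peg10 and Ppp1r9a (-2.41 and -4.12), and its value without it was not computed. For the near intervals r was 0.19 and rho 0.24.

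The largest strand differences came mostly from a fall on 1 strand. At chr7:128341797-128414692, between Otoa and Hs3st2, the reverse strand read 8424 and 8040 in vector and 3512 and 3212 in ESlncRNA (-1.29 ± 0.044). RefSeq lists a pseudogene, Gm9240, in this gap. The forward strand, near background, read 75.8 and 89.0 and then 167 and 126, so the difference was 2.11 ± 0.40 (adjusted p = 1.42e-09). In the Mirt1 interval chr19:53517903-53540753 the reverse strand fell by 1.87 while the forward one rose slightly (0.15). The fitted difference of 2.02 ± 0.039 rests on a reverse probe not above background with ESlncRNA, so the size is not exact. Between Peg10 and Ppp1r9a both strands fell but by different amounts, with a difference of 1.71 ± 0.036. The others with a higher forward ratio were between Snai1 and Ube2v1 (1.33), Agtr1b and Tbl1xr1 (1.03) and Wdfy4 and Arhgap22 (0.84), and in each the reverse strand fell. Between Wdfy4 and Arhgap22 the size rests on the probe chosen, since the other kept reverse probes read -2.47, -1.97, -1.91 and 0.15.

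With the higher ratio on the reverse strand, the difference was largest between Cmc1 and Eomes (-1.74 ± 0.00025), where the forward strand fell and the reverse one stood at -0.01. Between Dyrk2 and Cand1 (-1.15) it came from a reverse rise, and between Nfil3 and Ror2 (-1.12) from a forward fall. In both, the strand that changed was above background in 1 channel only, so these sizes and their rank are not exact. Between Ezh2 and Pdia4 (-1.03) the reverse strand of chr6:47595238-47601893 rose by 0.94 and the forward one did not pass. Between Tiam1 and Sod1 (-0.88) both strands fell, and chr16:90038086-90127636 forward went from 12283 and 11399.6 in vector to 4382 and 4188 in ESlncRNA (-1.47 ± 0.030). RefSeq lists a pseudogene, Gm7307, in this gap. Likeness of these probes to coding transcripts beyond the array's probes was not tested. Their signal therefore cannot be taken as that of the interval alone. At chr14:103751075-103769725, between Mycbp2 and Scel, the strands went opposite ways and the fitted difference was -1.08 ± 0.19, again with a reverse probe above background only with ESlncRNA.

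**Figure D5:**
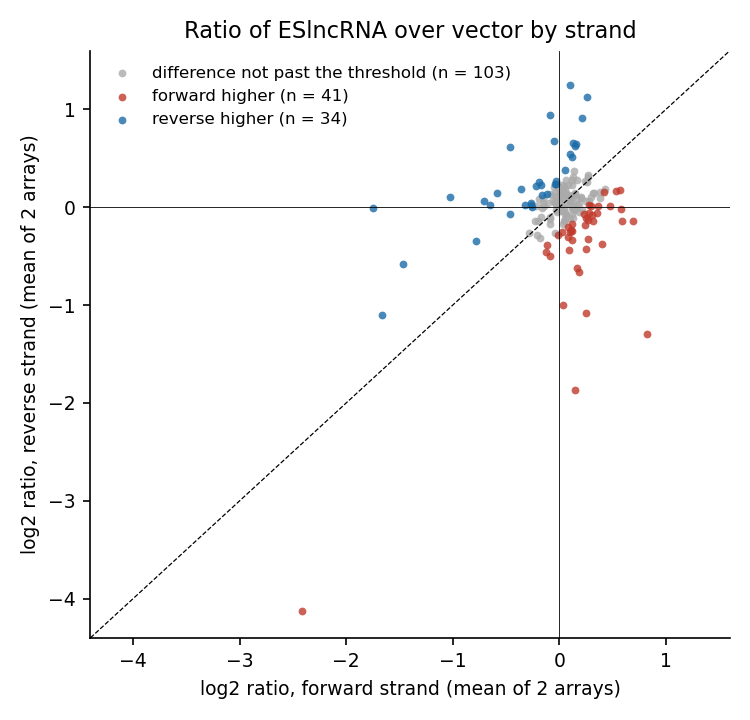
Log2 ratio of ESlncRNA over vector on the forward (x axis) and reverse strand (y axis) of the 178 far intervals kept on both, as means of 2 arrays, with the dashed line at equality. The 41 intervals with a higher forward ratio lie below the line and the 34 with a higher reverse ratio above it, counts that fall to 10 and 13 with processed signals.

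Complementary probes make the strand comparison at a single place. Among far probes 906 forward and reverse pairs were complementary over at least 30 bases. In 537 of them neither probe was kept, in 291 only 1 was, and in 78 both were. Among the 78, both rose or both fell in 14, they moved in opposite directions in 5, only 1 passed in 32 and neither in 27. In the Mycbp2 to Scel pair printed above, which differs from perfect complementarity only at its ends, the forward probe read 256 and 235 in vector and 185 and 171 in ESlncRNA. The reverse probe, above background only with ESlncRNA, read 65.5 and 69.3 and then 109.8 and 97.5. The forward probe fell by 0.46 ± 0.010 and the reverse one rose (0.62 ± 0.18). In the Peg10 to Ppp1r9a pair the reverse probe was far brighter in vector, at 13439 and 12802 against 465 and 456 for the forward one, and it fell by 3.97 ± 0.054 where the forward probe fell by 2.41.

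Of the 10 brightest far intervals 3 shared sequence with a coding probe and 3 lay over the ribosomal locus of chromosome 17. A far probe was counted as sharing sequence where at least 40 bases matched a coding probe of the array at 90% identity or more, a check added after the data were seen. This held for the representing probe of 11 of the 1164 kept intervals (0.945%), but for 9 of the 50 brightest. Over all far probes, kept or not, 16 matched a coding probe in the same orientation and all 16 were kept, while of 26 that were complementary to a coding probe 15 were kept. Of all far probes 25.8% were kept. The matching genes included ribosomal proteins (Rps16, Rpl11), Mif, Cox5b, Anxa11 and Ifitm1. The probe below is printed because it shows how closely an intergenic probe can match a ribosomal protein gene, and capitals mark the bases identical to the probe for that gene. It lies at chr14:49315252-49315311 on mm9, between Otx2 and Exoc5.
Shares 54 bases with Rpl11, reverse: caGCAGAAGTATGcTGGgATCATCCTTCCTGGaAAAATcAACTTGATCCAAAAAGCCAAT

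The median absolute difference in ratio between these intervals and the matching gene's probe was 0.13. Far intervals as a whole had a narrow spread (quartiles of -0.12 and 0.16), so a small difference says little by itself. The interval printed above, like Rpl11, read -0.01 (adjusted p = 0.852), where the matching Rpl11 probe rose by 0.31. The interval like Rps16, chr11:22681800-22707775 reverse, was the brightest of all, at 157937 and 153221 in vector and 207870.0 and 195555 in ESlncRNA. It rose by 0.37, where the matching Rps16 probe rose by 0.36 and the probe that represents Rps16 by 0.62. The interval like Mif rose by 0.36 and that like Ifitm1, chr5:96591892-96606467_F, fell by 1.66 where Ifitm1 fell by 3.40. For each of them signal from the coding gene and from the interval cannot be told apart. Without the 11 intervals 320 far intervals rose and 255 fell. The other 4 of the 10 brightest were chr12:73838608-73862621 reverse next to Ppm1a (-0.26), chr7:108209996-108216032 reverse between P2ry2 and Fchsd2 (0.14, adjusted p = 0.0516), chr6:116123643-116124550 forward between Tmcc1 and D6Wsu116e (0.26) and chr17:17481706-17482457 reverse between BC018101 and Riok2 (0.32). Likeness of their probes to coding transcripts beyond the array's probes was not tested, so their signal cannot be taken as that of the interval alone.

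Far intervals and the genes of their nearest coding probes showed almost no correlation. Over 681 far intervals measured in both channels with a kept nearest gene, r was 0.06 (Pearson) and rho 0.04 (Spearman) between their log2 ratios, and 328 (48.2%) had the same sign. For 711 intervals within 20 kb but without a coding probe inside, r was 0.17 and rho 0.15, with 54.0% of the same sign. These are correlations across intervals, which share arrays and in part loci. Distance made no steady difference, with r of 0.15 for the 312 intervals at 20 to 50 kb, -0.10 for the 205 at 50 to 100 kb and 0.13 for the 164 beyond.

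Among intervals measured in both channels, the median distance to a coding probe was 60.7 kb for the 271 that rose, 58.8 kb for the 173 that fell and 55.8 kb for the 475 that did not pass. Their median lengths were 15.3 kb, 11.7 kb and 15.5 kb, and their probes had median GC contents of 45.0%, 45.0% and 46.7%. The intervals that fell were brighter, with a median log2 intensity of 8.0, against 7.37 for those that rose and 7.11 for those that did not pass. Of the 307 dimmest intervals 25 fell and 85 rose, and of the 306 brightest 82 and 93. Several probes were kept in 523 intervals, and in 251 of these at least 2 probes passed the threshold. Among the 251, 218 had them all in 1 direction and 33 in both. In the rest of the 523 at most 1 probe passed, so agreement of probes is seen only where 2 or more passed. The same count was not made for near intervals or coding genes.

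The limit of 20 kb had these intervals on either side. The closest of the far intervals were chrX:98680220-98718445 reverse at 20.089 kb (0.26), chr8:42462791-42466106 reverse at 20.1 kb (-0.20) and chr13:21264306-21264482 reverse at 20.172 kb, which was not kept. Just outside were both strands of chr5:22801058-22939737 at 19.994 kb (0.22 and 0.07) and chrX:72966144-73011019 reverse at 19.985 kb (-0.12).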

How the data were processed

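Each of the 2 arrays, on 1 slide, gave spot intensities that the authors obtained with Feature Extraction (version 10.1.1.1), as the deposited headers state. The deposited scanner files also hold a log10 ratio of red over green, and the authors' deposited value table holds log2 ratios. Labelling used the QuickAmp kit, with 100 ng of input stated for replicate 2 alone, per the labels' protocols. Spot means were background-corrected with limma 3.58.1 (R 4.3.3; normexp, offset 50) and normalized by loess within each array, with control and outlier spots at weight 0. No spot was marked saturated (0). Of 55681 probes, 26789 passed the background filter on both arrays. Limma's moderated test was fitted on all of these (1 residual degree of freedom) with Benjamini-Hochberg adjustment. Strand differences were tested within arrays. Where a kept probe was above background in 1 channel alone, its fold is a bound, set against the lowest signal well above background. The number of arrays limits the precision.

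The intervals and gene lists were chosen with earlier results of these data known. Named were the 10 highest and 10 lowest intervals past the threshold whose sign was shared by both arrays, the 10 brightest, the 6 largest strand differences each way, the 3 loci with most kept probes and the 3 intervals on each side of 20 kb. A few results that the rule names are not reported here. Matching of probes used blastn 2.17.0+. Flanking genes were those of the nearest coding probes of the array, and other genes of a gap were read from RefSeq tables of GRCm38.p6. Each array holds 1 vector and 1 ESlncRNA sample, so the ratio pairs them by hybridization. Background correction, normalization, filter, representative probe, pairing, distance limit and each replicate left out were tried as alternatives. The fits were tested on simulated data.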

Additional observations from a re-analysis of the deposited data

How the results depend on the processing

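Counts are of far intervals that rose (323), fell (258) or were at least 2-fold lower (23), with a median log2 ratio of 0.036, and of strand differences with the forward (41) or reverse (34) ratio higher. Shares over all features were not computed under other normalizations or without pairing. Median centring gave 666, 133, 14 and 0.23, the processed signals 143 falling, 67 and 0.30, and the authors' values 202 rising and 38 at least 2-fold lower. An offset of 0 gave 55 and 0.063, no background correction 39, and a filter on both channels a median of 0.058. A limit of 50 kb gave 190 rising and 157 falling, and distance to any other probe 166, 108, 11 and 0.049. Without either replicate the median ran from 0.033 to 0.043 and the intervals at least 2-fold lower from 25 to 28. With the pairing by array dropped (no replicate block, separate channels), 178 rose and 186 fell, and strand differences numbered 14 forward and 16 reverse. Strand counts were 23 and 18 with offset 0 and with both channels, 10 and 13 with processed signals, 79 and 72 without a filter, and 19 reverse with the authors' values. Detection, 45.5%, became 54.7% with 1 channel on 1 array, 36.2% with both channels on both, 47.8% at 10 kb, 42.04% at 50 kb and 40.4% by any probe. Among named intervals, median centring reversed chr12:73838608-73862621 (0.67), chr17:39960567-39992817 (0.49), chr17:39982023-39983277 (1.01), chr17:39983902-39985688 (0.43), chr6:47595238-47601893 forward (0.13) and chr9:118291593-118324230 reverse (0.053). Processed signals reversed the last 2 (0.071 and 0.22) and chr7:108209996-108216032 (-0.035). Taking the mean of probes reversed chr12:73838608-73862621 (0.023) and chr19:53517903-53540753 forward (-0.046), both channels reversed chr13:54399275-54445825 (-0.0059), the authors' values chr17:39982023-39983277 (0.01), and no background correction chr9:118291593-118324230 reverse (0.0013). Of the other values of named intervals 469 were counted as unchanged, 15 lost and 7 gained a call. The 469 include values with 1 replicate left out. Those have no p-value, and the rule used could not count them as moved, so they add no support. The cause of these shifts was not tested. Leaving out the 11 intervals with shared sequence was an alternative added after seeing the data.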
